A study of Rattus norvegicus with 18 samples.

Results

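Genes of the extracellular matrix were examined across all groups of a study of cultured neonatal rat cardiomyocytes. A list of 49 genes was looked up by symbol. It held fibrillar, basement membrane and other collagens, laminins and nidogens, elastic fibre proteins, adhesive and matricellular proteins, proteoglycans, and the enzymes and chaperone that process collagen. Of the 49, 39 had a row among the 17303 rows of the expression table, and 38 of those 39 were tested among 10478 rows. Col1a2, the second chain of collagen I, had a row but stood at or near the floor of 0.01 FPKM in all 18 libraries, so nothing is read from it. The listed genes Col4a2, Col4a5, Col6a1, Col6a3, Col12a1, Lama2, Lamb1, Nid1, Hspg2 and Fbln2 are not analysed here.

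The cells were ventricular myocytes from Wistar rats at postnatal day 3, and 3 libraries of polyadenylated RNA were made for each of 6 groups. The groups were 10 µM phenylephrine (PE), PE with 10 µM Senexin A (PE+Snx10), PE with 50 µM Senexin A (PE+Snx50), Vehicle, 10 µM Senexin A alone (Snx10) and 50 µM Senexin A alone (Snx50). PE is an alpha1-adrenergic agonist that drives hypertrophic growth of such cells. Senexin A inhibits the kinase CDK8, a part of the Mediator complex that links transcription factors to RNA polymerase II, and the study asked how that kinase shapes the transcriptional response to hypertrophic stimulation. Cultures of every group, Vehicle included, had 48 h of AraC, which kills dividing cells, then 24 h without serum, then 48 h of treatment with the medium renewed at 24 h. Such cultures hold mostly myocytes, with whatever fibroblasts and other cells survived AraC. The labels do not say whether replicates came from separate isolations.

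The matrix of the heart is a network of collagen I and III fibrils, elastic fibres and basement membranes around each myocyte. Cardiac fibroblasts make most of the fibrillar collagen, while myocytes themselves contribute basement membrane laminins and collagen IV. Collagen chains are hydroxylated and folded in the endoplasmic reticulum, secreted, and then cross-linked by lysyl oxidases, and an excess of cross-linked collagen is the hallmark of fibrosis in the overloaded heart.

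Values are FPKM, fragments scaled to gene length and to the mapped total, so levels can be compared between genes per length. Differences are on the log2(FPKM + 1) scale with a standard error (SE), and a gene was called higher or lower at a Benjamini-Hochberg adjusted p under 0.05 in limma, adjusted over all 10478 rows. The libraries summed to between 610324 and 910958 FPKM, and their depth relative to Vehicle replicate 2 was 0.833 to 1.11. Absolute depth is unknown, so no counting interval is given. Libraries that carried the same replicate number deviated together in all 45 pairs, so calls that change when the number enters the fit as a block are marked where they occur. Of the 38 members, Col1a1, Col3a1, Eln, Postn and Serpinh1 were highest in replicate 3 in each of the 6 groups, as were 3.47% of all rows. Replicate 1 was highest in each group for Col4a1, Col18a1 and Thbs1, and replicate 2 for Spp1.

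Matrix transcripts took 0.932% to 1.18% of the FPKM sum in PE, 0.705% to 1.02% in PE+Snx10 and 0.547% to 0.760% in PE+Snx50. Without PE they took 1.42% to 1.88% in Vehicle, 1.11% to 1.59% in Snx10 and 0.624% to 0.777% in Snx50. At 50 µM the range lay below that of its own background in each case. The most abundant member was Sparc, with a mean over all libraries of 2251 FPKM, followed by Bgn at 676 FPKM, Serpinh1 at 626 FPKM and Col1a1 at 594 FPKM. The median member stood at 77.5 FPKM, while the median tested row stood at 16.0 FPKM.

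With 50 µM Senexin A, most of the matrix list fell. In PE+Snx50 against PE, 25 of the 38 members were lower and 3 higher, while 27.4% of all rows were lower and 29.3% higher. In Snx50 against Vehicle, 27 were lower and 3 higher, beside 30.2% and 30.5% of all rows, 60.7% in all. The median log2 fold change of the members was -0.74 with PE and -0.83 without, against 0.00 and -0.01 over all rows. The 3 members that rose, Lamc1, Lama4 and Col18a1, were the same in both comparisons, and each belongs to the basement membrane. The 3 libraries of PE+Snx50 lay wholly below those of PE for 23 members and above for 3, beside 30.3% and 31.8% of all rows. Those of Snx50 lay below Vehicle for 27 and above for 3, beside 32.2% and 32.6%. Of the 25 members that fell with PE, 24 also fell without it, which is 96% of the first set and 88.9% of the second. Over all tested rows the same shares were 80.1% and 72.7%.

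At 10 µM fewer members passed the test. In PE+Snx10 against PE, 7 members were lower and 3 higher, beside 7.84% and 9.13% of all rows, and the median was -0.27. Those 7 were Lox, Plod2, P4ha1, P4ha2, Fn1, Sparc and Tgfbi, and each was lower at 50 µM too. In Snx10 against Vehicle, 3 members were lower and 2 higher, beside 7.01% and 9.17% of all rows, which is close to the background. The groups did not overlap for 10 members that were lower and 4 that were higher in PE+Snx10 against PE, beside 16.8% and 19.3% of all rows, and for 7 and 4 in Snx10 against Vehicle, beside 17.2% and 18.2%. With the replicate block, 14 members were lower and 7 higher at 10 µM with PE, while 27.9% of all rows were called and 13.2% were lower. In Snx10 against Vehicle the block gave 7 lower and 6 higher, while 26.4% of all rows were called and 11.9% were lower. The call counts also turned on single libraries, among members and among all rows. For PE+Snx10 against PE 5 members were called without PE replicate 3 and 6 without PE+Snx10 replicate 1. The share of all rows called there was 9.87% and 10.5%, against 17% with every library. For Snx10 against Vehicle 3 members were called without Vehicle replicate 3, beside 9.59% of all rows, against 16.2% with every library.

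**Figure D1:**
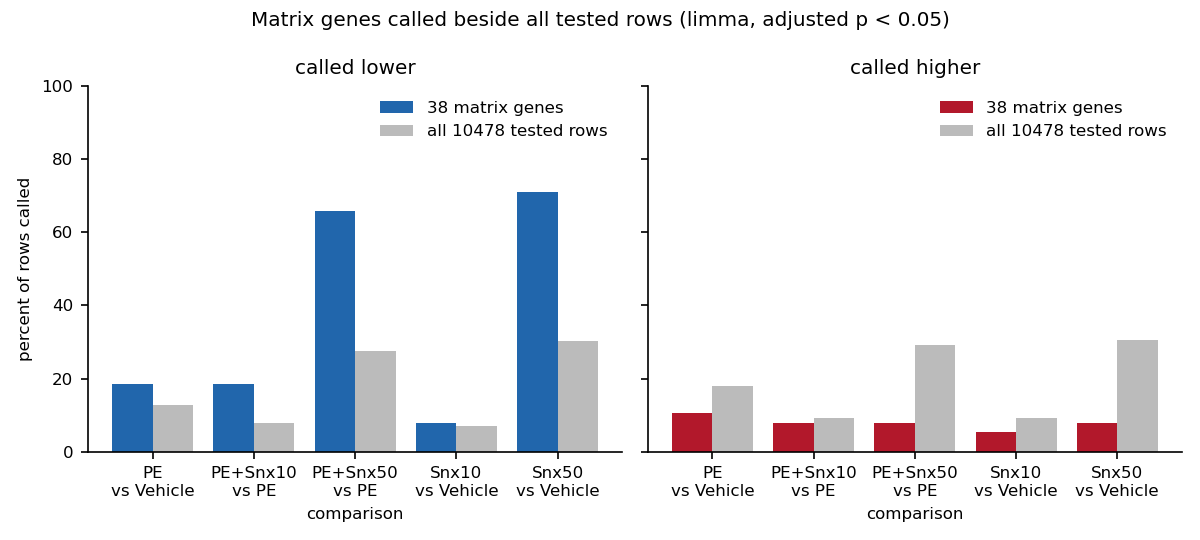
Percent of the 38 matrix genes and of all 10478 tested rows called lower (left) or higher (right) by limma at an adjusted p under 0.05 in 5 comparisons. At 50 µM Senexin A (Snx50) the lower calls take 65.8% of the matrix genes with PE and 71.1% without, against 27.4% and 30.2% of all rows, while higher calls are fewer among matrix genes than among all rows in every comparison.

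**Figure D2:**
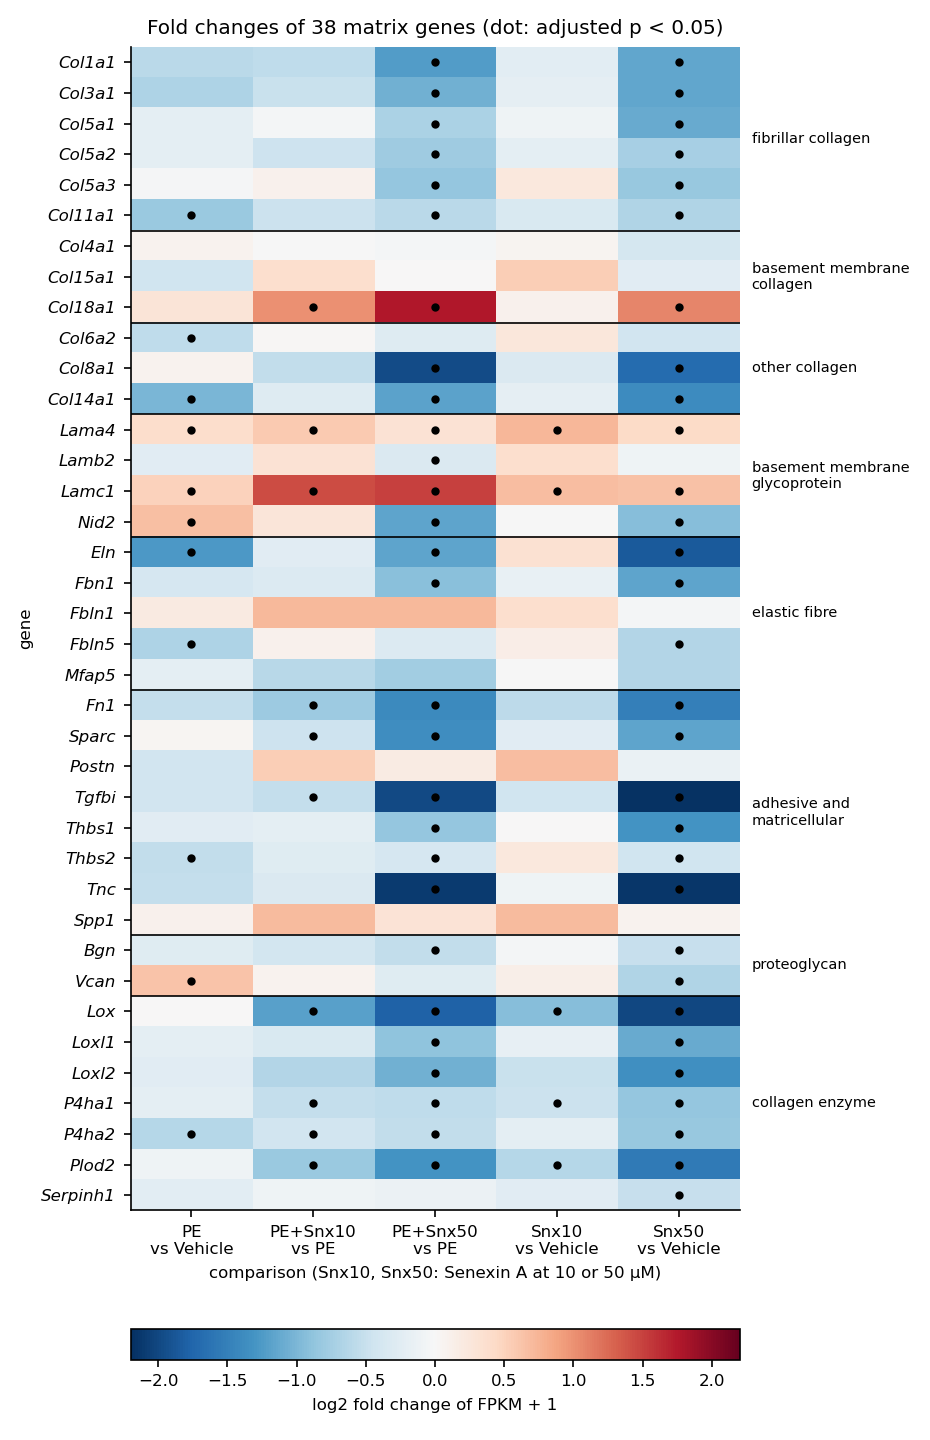
Log2 fold change of FPKM + 1 for each of the 38 matrix genes (rows, by role) in 5 comparisons (columns), with a dot where the adjusted p was under 0.05. The blue columns at 50 µM run through fibrillar collagens, enzymes and most adhesive proteins, and the called exceptions in red are Col18a1, Lama4 and Lamc1.

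Markers of the cells that could make matrix were read beside these results. The 9 myocyte markers with a row were all well above 1 FPKM, and summed to 82748 to 100711 FPKM in PE, 62306 to 82091 in PE+Snx10, 43078 to 54764 in PE+Snx50, 33803 to 48339 in Vehicle, 46721 to 61014 in Snx10 and 33728 to 53119.7 in Snx50, most of it Myl2. Of 11 fibroblast markers that are not matrix genes, 10 passed the filter on low values and Cd248 stood at the floor in every library. Without S100a4, which made up most of their sum, they summed to 129 to 158 FPKM in PE, 106 to 152 in PE+Snx10, 86.3 to 115 in PE+Snx50, 178 to 238 in Vehicle, 165 to 249 in Snx10 and 112 to 147 in Snx50. That sum without S100a4 was lower at 50 µM than without inhibitor in each series, and lower in PE than in Vehicle, without overlap. With S100a4 the list summed to 3632 to 4331 FPKM in PE and 1858 to 2268 in Vehicle, so PE was higher, without overlap. It summed to 1364 to 1790 in PE+Snx50 and 1242 to 1449 in Snx50. In PE against Vehicle, S100a4 was called higher and Mdk lower of the 10 tested markers, beside 17.9% and 12.7% of all rows. The myocyte sum was higher in PE than in Vehicle and lower in PE+Snx50 than in PE, also without overlap. The single myocyte markers went in both directions. In PE against Vehicle 6 of 9 were called higher and Pln lower, beside 17.9% and 12.7% of all rows. In PE+Snx50 against PE, Actn2, Myl2, Myl3 and Mybpc3 were lower and Pln and Myh6 higher, beside 27.4% and 29.3%.

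Within the fibroblast list, 5 of 10 markers were lower in PE+Snx50 than in PE and 5 of 10 were lower in Snx50 than in Vehicle, with none higher, beside 27.4% and 30.2% of all rows lower and 29.3% and 30.5% higher. Thy1 fell by 1.05 and Ddr2 by 0.94 on the log2 scale in PE+Snx50 against PE, while Pdgfra changed by 0.05 (adjusted p = 0.895) and Tcf21, a fibroblast transcription factor, by 0.23 (adjusted p = 0.648). S100a4 was higher in PE than in Vehicle by 1.06 and lower in PE+Snx50 than in PE by 1.35. Of 9 smooth muscle and pericyte markers, 3 were lower in PE+Snx50 than in PE, a share near the 27.4% of all rows. They were Acta2 (-1.52), Tagln (-1.17) and Cnn1 (-1.84), and Pdgfrb changed by -0.16 (adjusted p = 0.614). Of 10 endothelial markers 6 passed the filter on low values, and the list summed to 14.2 to 15.1 FPKM in PE+Snx50 and 18.8 to 20.5 in PE. Of 10 macrophage markers 6 passed, with Cd163 at or near the floor, and that list summed to 8.72 to 56.3 FPKM in PE+Snx50 and 7.12 to 26.4 in PE. Epicardial markers summed to 109 to 266 FPKM in PE+Snx50 and 36.3 to 67.2 in PE, most of it Krt18. In RNA of a whole culture, fewer cells of a type and less RNA per cell cannot be told apart, and the part of cell makeup in the matrix results was not tested.

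**Figure D3:**
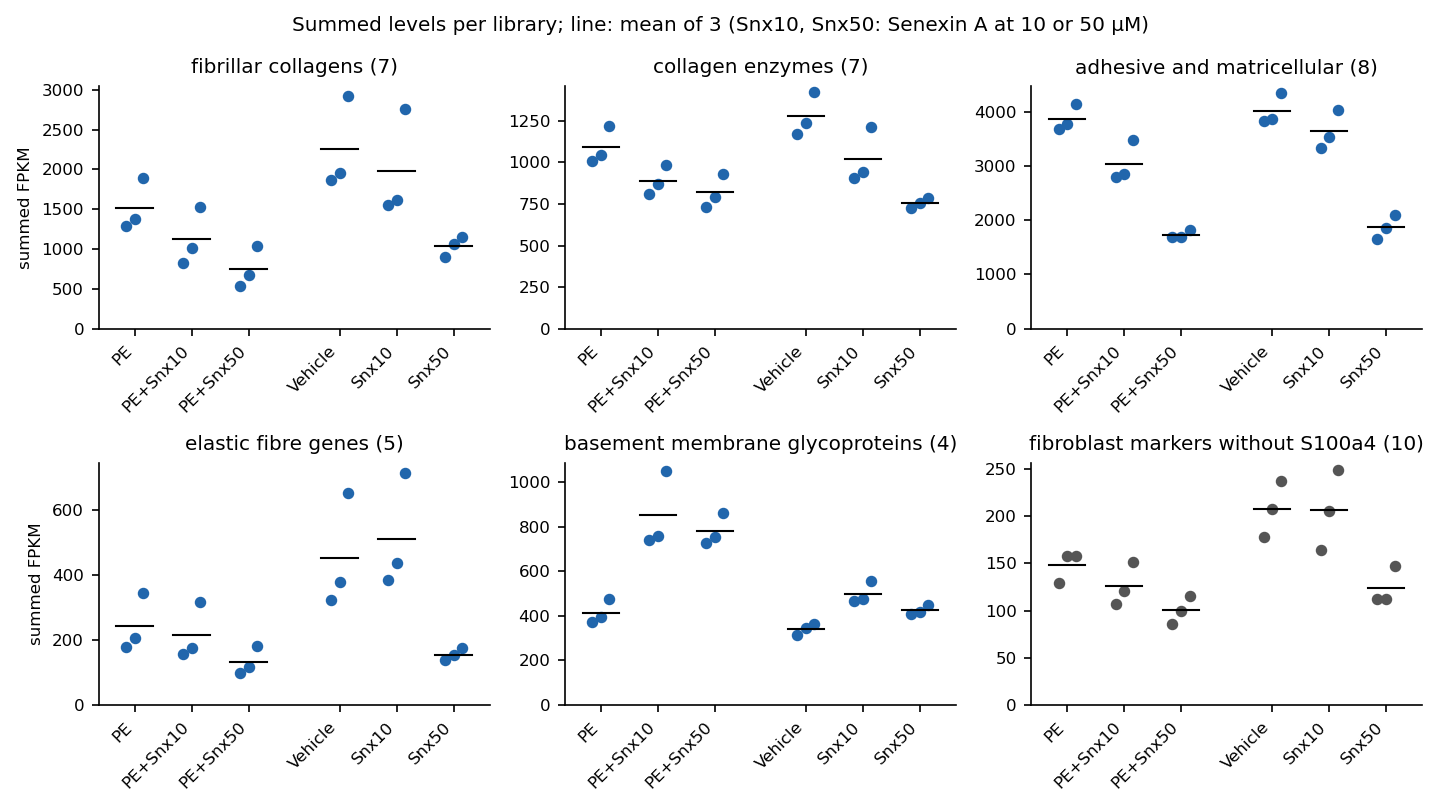
Summed FPKM of 5 role classes and of the fibroblast markers other than S100a4 in each of the 18 libraries, with a line at the mean of 3, and the number of rows summed in brackets. Sums of fibrillar collagens, enzymes and adhesive proteins are lowest at 50 µM in each series. Basement membrane glycoproteins are highest in the libraries with PE and Senexin A, where most of the sum is Lamc1. In that class Nid2 and Lamb2 are called lower in PE+Snx50 than in PE. The fibroblast marker sum without S100a4 is lower at 50 µM and lower in PE than in Vehicle.

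Fibrillar collagens form the load-bearing fibrils. All 6 tested chains fell at 50 µM, with and without PE, beside 27.4% and 30.2% of all rows. Col1a1, the main chain of collagen I (rn5 chromosome 10, 82563433 to 82580364), had 509, 617 and 777 FPKM in PE, 379, 328 and 612 in PE+Snx10 and 233, 198 and 416 in PE+Snx50. Without PE it had 791, 890.2 and 1184 FPKM in Vehicle, 641, 682 and 1158 in Snx10 and 424, 384 and 472 in Snx50. Libraries at 50 µM lay below those without inhibitor in both series, and those at 10 µM overlapped them. The change was -1.22 (SE 0.29, adjusted p = 0.00183) in PE+Snx50 against PE and -1.14 (SE 0.29, adjusted p = 0.00262) in Snx50 against Vehicle. Against PE, 10 µM gave -0.56, with an adjusted p of 0.199 that became 0.00564 with the replicate block. The same value passed without replicate 3 of every group (-0.67, adjusted p = 0.0189). Col1a1 was also called with the block in PE+Snx50 against PE+Snx10 (-0.66, adjusted p = 0.000688, against 0.0766 without the block, and 0.0466 without PE+Snx10 replicate 2, 0.0112 without PE+Snx50 replicate 3 and 0.00284 without replicate 3 of every group).

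Col3a1, the chain of collagen III that co-assembles with collagen I, moved with it and changed by -1.07 (SE 0.35, adjusted p = 0.0162) with PE and -1.14 (SE 0.35, adjusted p = 0.00982) without. Both calls were lost on leaving out single libraries in fits without the replicate block. With the block both held, and the lowest adjusted p among the alternatives was 3.23e-07 with PE and 1.22e-07 without. The call with PE was lost on leaving out PE replicate 3 (-0.83, adjusted p = 0.0818), PE+Snx50 replicate 1 (-0.99, adjusted p = 0.0503) or PE+Snx50 replicate 2 (-0.82, adjusted p = 0.0832). The call without PE was lost on leaving out Vehicle replicate 3 (-0.87, adjusted p = 0.0587). Col3a1 was also called with the block in PE+Snx10 against PE (-0.49, adjusted p = 0.00246, against 0.36 without the block, and 0.0378 without replicate 3 of every group) and PE+Snx50 against PE+Snx10 (-0.57, adjusted p = 0.000287, against 0.207 without the block, and 0.0121 without replicate 3 of every group).

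Col5a1, a chain of collagen V, a minor fibrillar collagen that sets fibril diameter, had 133, 138 and 152 FPKM in PE, 144, 118 and 151 in PE+Snx10 and 92.8, 71.7 and 96.0 in PE+Snx50, against 147, 149 and 201 in Vehicle, 142, 139.5 and 183 in Snx10 and 79.3, 74.5 and 73.9 in Snx50. The 10 µM libraries overlapped those of their own control, and all 50 µM libraries lay below both. Its change was -0.70 (SE 0.14, adjusted p = 0.000452) in PE+Snx50 against PE and -1.10 (SE 0.14, adjusted p = 5.29e-06) in Snx50 against Vehicle.

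Col5a3 had 11.7, 10.7 and 15.1 FPKM in PE, 12.5, 9.66 and 19.2 in PE+Snx10 and 7.38, 5.55 and 6.32 in PE+Snx50, and without PE 12.2, 11.2 and 14.7 in Vehicle, 16.1, 13.0 and 15.9 in Snx10 and 8.76, 6.79 and 4.79 in Snx50. It changed by -0.86 ± 0.21 (SE) with PE and -0.84 ± 0.21 without at 50 µM, with adjusted p of 0.00281 and 0.00292. Col5a2 fell by 0.78 with PE and 0.73 without, with adjusted p of 0.0114 and 0.0156. The Col5a2 call with PE was lost on leaving out PE+Snx50 replicate 2 (-0.59, adjusted p = 0.0672), and the call without PE was lost on leaving out Vehicle replicate 3 (0.0621), Snx50 replicate 2 (0.0676), Snx50 replicate 3 (0.057) or replicate 3 of every group (0.165), with changes of -0.65 to -0.55 and adjusted p in brackets. Col5a2 was further called with the block in PE+Snx10 against PE (-0.46, adjusted p = 0.00688, against 0.207 without the block), PE+Snx50 against PE+Snx10 (-0.32, adjusted p = 0.0273, against 0.308 without the block) and Snx50 against Snx10 (-0.52, adjusted p = 0.00098, against 0.0825 without the block, and 0.03 without Snx10 replicate 2 and 0.027 without Snx50 replicate 1).

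Col11a1, a chain of the minor collagen XI, was the fibrillar chain called lower in PE against Vehicle. It had 11.5, 13.8 and 16.5 FPKM in PE, 9.95, 8.32 and 10.8 in PE+Snx10 and 8.11, 7.54 and 11.0 in PE+Snx50, and 18.03, 27.5 and 31.3 in Vehicle, 16.2, 18.9 and 24.2 in Snx10 and 16.1, 15.8 and 14.6 in Snx50. PE and Vehicle did not overlap, with a change of -0.81 (SE 0.19, adjusted p = 0.00442). At 50 µM it changed by -0.60 ± 0.19 (adjusted p = 0.0139) with PE and -0.65 ± 0.19 (adjusted p = 0.00734) without. The first of these calls was lost on leaving out PE replicate 3 (-0.48, adjusted p = 0.0702) or PE+Snx50 replicate 2 (-0.50, adjusted p = 0.0626), and the second on leaving out replicate 3 of every group (-0.46, adjusted p = 0.0565). With the block Col11a1 was called at the lower dose too, in PE+Snx10 against PE (-0.47, adjusted p = 0.0202, against 0.101 without the block).

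The enzymes and the chaperone that mature collagen made up 4 of the 7 members that fell at the lower dose with PE. The class has 7 genes, and those 4 falls stand beside 7.84% of all rows. In Snx10 against Vehicle 3 of the 7 fell, beside 7.01% of all rows. At 50 µM 6 of 7 fell with PE and 7 of 7 without, beside 27.4% and 30.2% of all rows. Plod2, the lysyl hydroxylase that acts on collagen telopeptides and sets the type of cross-link, had 85.6, 81.6 and 93.8 FPKM in PE, 45.7, 44.5 and 58.4 in PE+Snx10 and 32.2, 32.6 and 38.2 in PE+Snx50. Without PE it had 86.7, 87.0 and 105 FPKM in Vehicle, 61.5, 53.5 and 63.4 in Snx10 and 33.9, 34.8 and 24.5 in Snx50. The 3 groups of each series did not overlap one another, while PE and Vehicle did. The change at 10 µM was -0.81 (SE 0.13, adjusted p = 0.000918) with PE and -0.63 (SE 0.13, adjusted p = 0.00442) without. At 50 µM it was -1.32 (SE 0.13, adjusted p = 6.02e-07) with PE and -1.56 (SE 0.13, adjusted p = 8.58e-08) without, and 50 µM lay below 10 µM by 0.51 with PE (adjusted p = 0.00561) and 0.93 without (adjusted p = 3.05e-05). These Plod2 calls held under every alternative run.

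Lox, the lysyl oxidase that cross-links collagen and elastin outside the cell, had 41.6, 34.5 and 49.7 FPKM in PE, 17.4, 13.9 and 22.2 in PE+Snx10 and 10.4, 8.57 and 16.4 in PE+Snx50. Its values without PE were 33.1, 40.7 and 51.7 FPKM in Vehicle, 15.5, 21.2 and 27.9 in Snx10 and 10.2, 10.7 and 7.99 in Snx50. Every library with inhibitor lay below every library without it. At 10 µM Lox changed by -1.20 (SE 0.24, adjusted p = 0.00339) with PE and -0.94 (SE 0.24, adjusted p = 0.015) without, the steepest falls among members at that dose. At 50 µM it changed by -1.78 ± 0.24 with PE and -2.00 ± 0.24 without (adjusted p = 1.25e-05 and 3.12e-06). In Snx10 against Vehicle the call was lost on leaving out Vehicle replicate 3 (-0.78, adjusted p = 0.0736) or Snx10 replicate 1 (-0.73, adjusted p = 0.072). The block added a Lox call in PE+Snx50 against PE+Snx10 (-0.58, adjusted p = 0.016, against 0.0639 without the block, and 0.0383 without PE+Snx10 replicate 2, 0.0133 without PE+Snx50 replicate 3 and 0.0177 without replicate 3 of every group). Its row shares a locus with Zfp474, which reached at most 0.073 FPKM.

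The alpha subunits of prolyl 4-hydroxylase, which stabilises the collagen triple helix, fell at either dose with PE. P4ha1 had 109.6, 102 and 124 FPKM in PE, 73.9, 66.2 and 92.9 in PE+Snx10 and 76.1, 67.1 and 84.9 in PE+Snx50, and 118, 125 and 147 in Vehicle, 95.9, 83.5 and 99.4 in Snx10 and 75.9, 70.2 and 67.6 in Snx50. It changed by -0.53 (SE 0.12, adjusted p = 0.00806) at 10 µM and -0.55 (SE 0.12, adjusted p = 0.00122) at 50 µM with PE. Without PE the changes were -0.48 (SE 0.12, adjusted p = 0.0153) and -0.86 (SE 0.12, adjusted p = 1.96e-05), and the call at 10 µM was lost on leaving out Vehicle replicate 3 (-0.39, adjusted p = 0.0775) or Snx10 replicate 2 (-0.41, adjusted p = 0.076).

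P4ha2 had 40.6, 38.2 and 42.5 FPKM in PE, 29.1, 28.2 and 32.5 in PE+Snx10 and 26.2, 24.4 and 32.4 in PE+Snx50. In the series without PE it had 63.2, 63.0 and 62.7 FPKM in Vehicle, 52.7, 51.6 and 58.7 in Snx10 and 42.0, 31.9 and 31.9 in Snx50. PE alone lowered it by 0.63 (SE 0.11, adjusted p = 0.000487), and the 3 Vehicle libraries lay within 1 FPKM of each other. With PE, 10 µM lowered it further by 0.42 (adjusted p = 0.0147) and 50 µM by 0.54 (adjusted p = 0.000517). Without PE, 50 µM lowered it by 0.83 (adjusted p = 7.68e-06). Its call at 10 µM with PE was lost on leaving out PE replicate 3 (-0.39, adjusted p = 0.0628), PE+Snx10 replicate 1 (-0.40, adjusted p = 0.0517) or PE+Snx10 replicate 2 (-0.38, adjusted p = 0.0572).

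Serpinh1, the collagen chaperone HSP47, was the most abundant gene of the class and moved least. It had 566, 647 and 721 FPKM in PE, 587, 574 and 634 in PE+Snx10 and 500.0, 589 and 674 in PE+Snx50, and 687, 751 and 827 in Vehicle, 543, 612 and 767 in Snx10 and 471, 535 and 580.1 in Snx50. Among the 5 comparisons with a control, Snx50 against Vehicle was called, at -0.51 (SE 0.13, adjusted p = 0.00338). With the block Serpinh1 was called as well in PE against Vehicle (-0.23, adjusted p = 0.00997, against 0.205 without the block, and 0.00845 at -0.62 after quantile normalization), Snx10 against Vehicle (-0.25, adjusted p = 0.0108, against 0.232 without the block, and 0.0394 at -0.50 after quantile normalization) and Snx50 against Snx10 (-0.27, adjusted p = 0.00224, against 0.107 without the block, and 0.0377 without Snx10 replicate 1). With PE the value at 50 µM was -0.14 (adjusted p = 0.402). The remaining lysyl oxidases, Loxl1 and Loxl2, fell at 50 µM by 0.88 and 1.06 with PE and by 1.11 and 1.35 without, and kept those calls under every alternative run. Loxl2 was also called with the block in Snx10 against Vehicle (-0.49, adjusted p = 0.0142, against 0.198 without the block), PE+Snx10 against PE (-0.64, adjusted p = 0.00239, against 0.0839 without the block) and PE+Snx50 against PE+Snx10 (-0.42, adjusted p = 0.0161, against 0.186 without the block, and 0.0274 at -0.70 without PE+Snx10 replicate 2).

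Plod2 and P4ha2, which fell together at 10 µM with PE, are shown with their promoters because they were the only members among 25 with a promoter sequence to hold the hypoxia response core ACGTG. The sequences are the 250 bases before the gene's start in RefSeq (GRCr8), 5′ to 3′ on the gene's strand, and capitals mark that core and the GC box GGGCGG on either strand (ACGTG reads CACGT and GGGCGG reads CCGCCC on the other strand). The Plod2 window is chr8:101964068-101964317 (plus strand) and the P4ha2 window chr10:38743644-38743893 (plus strand).
Plod2: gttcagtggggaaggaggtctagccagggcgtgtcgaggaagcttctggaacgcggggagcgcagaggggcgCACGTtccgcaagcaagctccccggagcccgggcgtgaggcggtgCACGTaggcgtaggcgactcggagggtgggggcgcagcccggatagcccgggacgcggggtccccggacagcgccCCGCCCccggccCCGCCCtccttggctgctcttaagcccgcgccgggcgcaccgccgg
P4ha2: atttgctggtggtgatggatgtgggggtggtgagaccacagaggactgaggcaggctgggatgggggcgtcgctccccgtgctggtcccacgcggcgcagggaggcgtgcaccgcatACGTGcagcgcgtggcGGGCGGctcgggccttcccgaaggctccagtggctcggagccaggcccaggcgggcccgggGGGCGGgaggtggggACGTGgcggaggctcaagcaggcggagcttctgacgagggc
Each window held 2 matches to the core and 2 GC boxes, none of them overlapping. The core was in 2 of 25 member promoters and in 16.9% of all 27456 promoters of that length. A match is a run of letters, and no binding was measured here.

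Adhesive and matricellular proteins, which link cells to the fibrils and modulate growth factor signals, held the steepest falls at 50 µM. Of 8 members 6 fell with PE and 6 without, beside 27.4% and 30.2% of all rows. Tnc, tenascin C, had 46.9, 33.7 and 35.4 FPKM in PE, 39.3, 21.6 and 32.7 in PE+Snx10 and 10.4, 6.99 and 7.45 in PE+Snx50, and without PE 60.4, 49.1 and 56.7 in Vehicle, 48.6, 47.3 and 60.8 in Snx10 and 13.2, 12.8 and 9.50 in Snx50. The 10 µM values overlapped those without inhibitor and the 50 µM values lay far below. Its change at 50 µM was -2.10 (SE 0.20, adjusted p = 3.1e-07) with PE and -2.14 (SE 0.20, adjusted p = 2.03e-07) without. Tnc was called with the block in PE against Vehicle (-0.52, adjusted p = 0.0131, against 0.0578 without the block, and 0.0183 after quantile normalization and 0.0371 without PE replicate 1). Tgfbi, an integrin ligand induced by TGF-beta, had 11.2, 8.68 and 11.4 FPKM in PE, 7.56, 6.76 and 6.52 in PE+Snx10 and 2.58, 1.29 and 1.85 in PE+Snx50. In the other series it had 12.3, 13.5 and 17.2 FPKM in Vehicle, 8.85, 11.1 and 10.9 in Snx10 and 1.94, 2.52 and 2.71 in Snx50. No library with inhibitor overlapped its own background. The change at 50 µM was -1.99 (SE 0.16, adjusted p = 7.54e-08) with PE and -2.17 (SE 0.16, adjusted p = 2.45e-08) without. The lower dose with PE gave -0.52 ± 0.16 (adjusted p = 0.0379), and that call was lost on leaving out PE replicate 1 (0.109), PE replicate 3 (0.135), PE+Snx10 replicate 1 (0.0617), PE+Snx10 replicate 2 (0.0966), PE+Snx10 replicate 3 (0.0972) or replicate 3 of every group (0.271) and with a pseudocount of 0.1 (0.0692) and without the filter on low values (0.0643) and after quantile normalization (0.0512), with changes of -0.57 to -0.42 and adjusted p in brackets. Tgfbi was called with the block in PE against Vehicle (-0.42, adjusted p = 0.0394, against 0.0592 without the block, and 0.0456 without Vehicle replicate 1) and Snx10 against Vehicle (-0.44, adjusted p = 0.0491, against 0.0802 without the block).

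Sparc, a collagen-binding matricellular protein also called osteonectin, had 3034, 2995 and 3316 FPKM in PE, 2076, 2144 and 2636 in PE+Snx10 and 1205, 1122 and 1303 in PE+Snx50. Without PE it had 2932, 2899 and 3191 FPKM in Vehicle, 2393, 2455 and 2780.1 in Snx10 and 1529.8, 1316 and 1189 in Snx50. The 3 groups of each series formed separate steps. In PE against Vehicle Sparc was at 0.05 (adjusted p = 0.765), but quantile normalization turned this to -0.57 (adjusted p = 0.00308). The change at 50 µM was -1.36 (SE 0.11, adjusted p = 7.68e-08) with PE and -1.17 (SE 0.11, adjusted p = 2.84e-07) without, and 50 µM lay below 10 µM by 0.91 with PE and 0.92 without (adjusted p = 9.38e-06 and 6.39e-06). At 10 µM with PE the change was -0.45 ± 0.11 (adjusted p = 0.0114), and that call was lost on leaving out PE replicate 3 (-0.41, adjusted p = 0.0543) or PE+Snx10 replicate 1 (-0.39, adjusted p = 0.0583).

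Fn1, fibronectin, had 266, 231 and 293 FPKM in PE, 162, 111 and 192 in PE+Snx10 and 104, 75.5 and 123 in PE+Snx50, and 369, 337 and 440.0 in Vehicle, 245, 208 and 324 in Snx10 and 154, 118 and 129 in Snx50. Every library with inhibitor lay below every library of its own background, and PE lay below Vehicle without overlap. PE against Vehicle gave -0.53 ± 0.21 (adjusted p = 0.0633, and 0.00126 with the replicate block), and -0.80 (adjusted p = 0.0196) after quantile normalization. PE+Snx50 against PE gave -1.40 (SE 0.21, adjusted p = 3.22e-05), and Snx50 against Vehicle -1.51 (SE 0.21, adjusted p = 1.28e-05). The lower dose with PE gave -0.79 ± 0.21 (adjusted p = 0.0163), and that call was lost on leaving out PE replicate 3 (-0.71, adjusted p = 0.0711) or PE+Snx10 replicate 2 (-0.57, adjusted p = 0.0833). Fn1 was called with the block in Snx10 against Vehicle (-0.58, adjusted p = 0.0013, against 0.0723 without the block, and 0.0478 after quantile normalization and 0.0331 without Snx10 replicate 3).

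Thbs1, thrombospondin 1, which can activate latent TGF-beta, had 212, 172 and 182 FPKM in PE, 188, 135 and 169 in PE+Snx10 and 117, 96.4 and 98.3 in PE+Snx50, and 258, 203 and 214 in Vehicle, 250.3, 209 and 216 in Snx10 and 111, 102 and 64.5 in Snx50. It changed at 50 µM by -0.86 (SE 0.17, adjusted p = 0.000488) with PE and -1.31 (SE 0.17, adjusted p = 7.45e-06) without, and its 10 µM libraries overlapped those without inhibitor. Thbs2 fell by 0.38 and 0.44 in the same comparisons (adjusted p = 0.0171 and 0.00607) and by 0.54 in PE against Vehicle (adjusted p = 0.00392). The Thbs2 call with PE was lost on leaving out PE replicate 3 (-0.30, adjusted p = 0.0792) or PE+Snx50 replicate 1 (-0.29, adjusted p = 0.0861) and after quantile normalization (-0.27, adjusted p = 0.0626), and that of Snx50 against Vehicle after quantile normalization (-0.28, adjusted p = 0.0512).

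**Figure D4:**
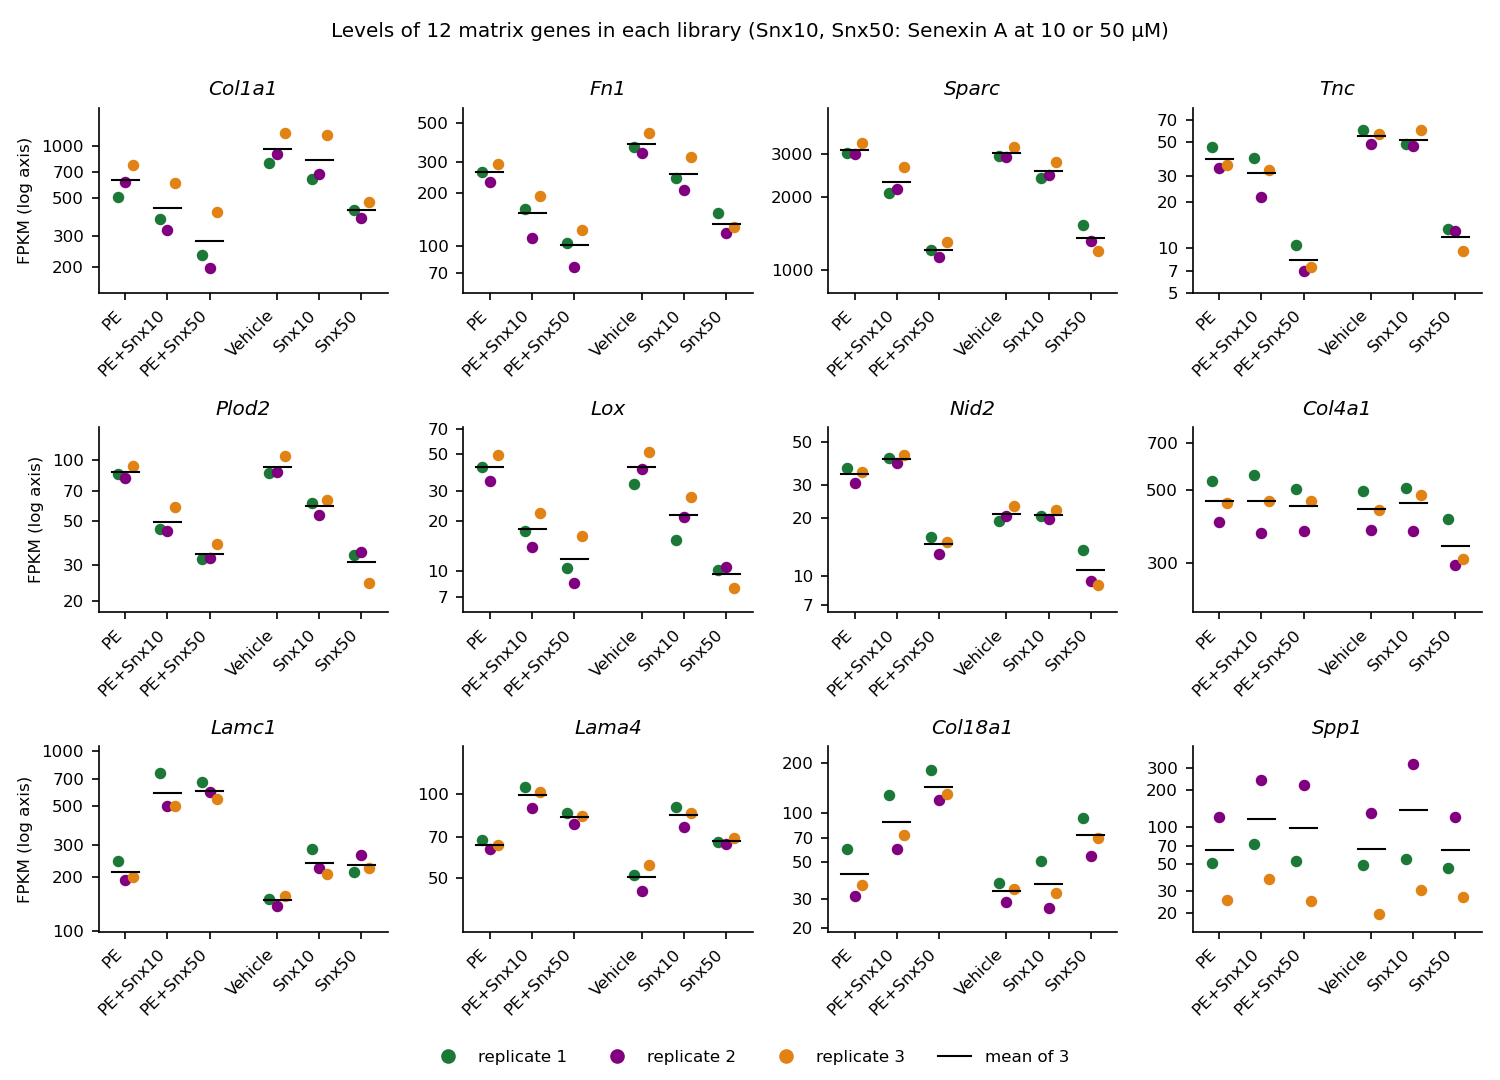
FPKM (log axis) of 12 matrix genes in each of the 18 libraries, by group and coloured by replicate number, with a line at the mean of 3. Col1a1, Fn1, Sparc, Tnc, Plod2 and Lox are lowest at 50 µM in each series. Lamc1, Lama4 and Col18a1 are higher with inhibitor than in PE, the libraries of Col4a1 rank replicate 1, 3, 2 in every group, and replicate 2 is the highest library of each group for Spp1.

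Elastic fibres are a core of elastin on a scaffold of fibrillin microfibrils. Of the 5 genes, 2 (40%) fell with 50 µM in PE and 3 (60%) in the absence of PE, beside 27.4% and 30.2% of all rows. With 5 genes, the count in PE is close to the background. Eln, elastin, had 96.7, 76.2 and 200.1 FPKM in PE, 73.0, 73.9 and 164 in PE+Snx10 and 42.6, 35.0 and 85.8 in PE+Snx50. It had 228, 195 and 466 FPKM in Vehicle, 294, 265 and 530.3 in Snx10 and 78.0, 65.8 and 85.0 in Snx50. Replicate 3 was the highest library in every group, by a wide margin except in Snx50, and PE overlapped Vehicle. The change was -1.26 (SE 0.43, adjusted p = 0.0348) in PE against Vehicle, -1.16 (SE 0.43, adjusted p = 0.0297) in PE+Snx50 against PE and -1.84 (SE 0.43, adjusted p = 0.00144) in Snx50 against Vehicle. The call in PE against Vehicle was lost on leaving out PE replicate 1 (0.108), PE replicate 2 (0.143) or Vehicle replicate 3 (0.17) and without the filter on low values (0.0622), with changes of -1.26 to -0.89 and adjusted p in brackets. The call in PE+Snx50 against PE was lost on leaving out PE replicate 3 (0.162), PE+Snx50 replicate 1 (0.0887) or PE+Snx50 replicate 2 (0.125) and without the filter on low values (0.0532), with changes of -1.16 to -0.76 and adjusted p in brackets. With the replicate block both of these calls held. The lowest adjusted p among the alternatives was 1.12e-05 in PE against Vehicle and 7.48e-06 in PE+Snx50 against PE. Eln was called with the block in PE+Snx50 against PE+Snx10 (-0.92, adjusted p = 0.00013, against 0.0983 without the block, and 0.0314 without PE+Snx50 replicate 3 and 0.00121 without replicate 3 of every group) and the interaction with 50 µM (0.68, adjusted p = 0.0406, against 0.56 without the block).

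Fbn1, fibrillin 1 of the microfibrils, had 86.5, 75.4 and 104 FPKM in PE, 72.4, 52.6 and 93.8 in PE+Snx10 and 48.4, 36.0 and 55.6 in PE+Snx50, and 113, 97.2 and 136 in Vehicle, 104, 82.8 and 125 in Snx10 and 64.8, 46.7 and 42.6 in Snx50. Its 50 µM libraries lay below those without inhibitor in both series, and the changes were -0.92 (SE 0.22, adjusted p = 0.00212) with PE and -1.16 (SE 0.22, adjusted p = 0.000269) without. Fbln5, which guides elastin onto microfibrils, had 16.0, 12.6 and 19.8 FPKM in PE, 15.7, 12.8 and 24.1 in PE+Snx10 and 12.2, 11.3 and 15.0 in PE+Snx50, and 26.1, 22.3 and 30.0 in Vehicle, 27.0, 25.2 and 35.6 in Snx10 and 18.9, 16.4 and 13.7 in Snx50. It was lower in PE than in Vehicle by 0.67 (adjusted p = 0.0215) and lower in Snx50 than in Vehicle by 0.65 (adjusted p = 0.0129), with no overlap in either. The PE call was lost on leaving out PE replicate 1 (-0.68, adjusted p = 0.0526), PE replicate 2 (-0.52, adjusted p = 0.103) or Vehicle replicate 3 (-0.57, adjusted p = 0.0925), and the Snx50 call on leaving out Vehicle replicate 3 (-0.55, adjusted p = 0.0575) or Snx50 replicate 3 (-0.53, adjusted p = 0.0597). The block added calls of Fbn1 in PE against Vehicle (-0.38, adjusted p = 0.0405, against 0.209 without the block) and of Fbln5 in PE+Snx50 against PE+Snx10 (-0.39, adjusted p = 0.0381, against 0.145 without the block, and 0.0443 without PE+Snx10 replicate 2).

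Fbln1, fibulin 1, which binds fibronectin and elastic fibres, was not called in the fit without the block. It had 6.22, 10.2 and 18.7 FPKM in PE, 12.6, 15.4 and 30.7 in PE+Snx10 and 14.2, 16.9 and 24.5 in PE+Snx50, and 7.52, 7.23 and 14.0 in Vehicle, 10.1, 8.94 and 19.7 in Snx10 and 9.87, 7.46 and 9.38 in Snx50. The value was 0.72 ± 0.38 at 10 µM and 0.71 ± 0.38 at 50 µM with PE (adjusted p = 0.212 and 0.123), which became adjusted p of 0.0124 and 0.00505 with the replicate block. The 50 µM value also passed without PE replicate 3 (1.09, adjusted p = 0.0263) and without replicate 3 of every group (0.88, adjusted p = 0.00565). Replicate 3 was the highest library in 5 of the 6 groups. Mfap5, a microfibril-associated glycoprotein, stood at a mean of 2.95 FPKM and was called in none of the 5 comparisons with a control without the block. With the block Mfap5 was called in PE+Snx50 against PE (-0.77, adjusted p = 0.0195, against 0.0748 without the block, and 0.0498 without PE replicate 1, 0.0411 without PE+Snx50 replicate 3 and 0.0324 without replicate 3 of every group) and Snx50 against Vehicle (-0.64, adjusted p = 0.0457, against 0.132 without the block).

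Of the 3 other collagens, Col8a1 and Col14a1 fell at 50 µM with and without PE, beside 27.4% and 30.2% of all rows. Col8a1, a short-chain collagen of vessel walls and stressed hearts, had 103, 58.5 and 98.0 FPKM in PE, 63.0, 41.8 and 70.8 in PE+Snx10 and 22.0, 17.8 and 22.3 in PE+Snx50, and 84.2, 59.3 and 99.8 in Vehicle, 70.2, 45.9 and 79.5 in Snx10 and 30.5, 21.5 and 20.8 in Snx50. It changed by -1.97 (SE 0.26, adjusted p = 9.01e-06) with PE and -1.69 (SE 0.26, adjusted p = 3.62e-05) without, the largest fall among collagens in PE+Snx50 against PE. Col8a1 was called with the block in PE+Snx10 against PE (-0.55, adjusted p = 0.00718, against 0.164 without the block). Col14a1, which coats fibrils, had 19.8, 32.9 and 41.5 FPKM in PE, 16.9, 21.3 and 41.1 in PE+Snx10 and 9.49, 12.6 and 16.9 in PE+Snx50, and 44.0, 57.0 and 92.4 in Vehicle, 39.8, 47.3 and 80.2 in Snx10 and 19.9, 26.8 and 22.7 in Snx50. It fell in PE against Vehicle by 1.01 (SE 0.35, adjusted p = 0.0379) and fell again at 50 µM by 1.18 with PE (adjusted p = 0.00875) and 1.38 without (adjusted p = 0.00273). The PE call was lost on leaving out PE replicate 1 (0.175), PE replicate 2 (0.0656), Vehicle replicate 2 (0.0662) or Vehicle replicate 3 (0.178) and without the filter on low values (0.0666), with changes of -1.07 to -0.72 and adjusted p in brackets.

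Col6a2, of the microfibrillar collagen VI, had 84.1, 89.3 and 114 FPKM in PE, 91.5, 82.1 and 119.6 in PE+Snx10 and 78.4, 68.6 and 88.3 in PE+Snx50, and 129, 121 and 179.7 in Vehicle, 148, 139.7 and 228 in Snx10 and 122, 94.4 and 100.1 in Snx50. PE lowered it by 0.57 (SE 0.20, adjusted p = 0.038), and that call was lost on leaving out PE replicate 1 (0.134), PE replicate 2 (0.106) or Vehicle replicate 3 (0.183) and without the filter on low values (0.0643), with changes of -0.57 to -0.39 and adjusted p in brackets. In Snx50 against Vehicle it was at -0.43 (adjusted p = 0.0711, and 0.00511 with the replicate block). That value also passed after quantile normalization (-0.67, adjusted p = 0.0179), without Vehicle replicate 2 (-0.53, adjusted p = 0.048) and without Snx50 replicate 1 (-0.53, adjusted p = 0.0466). Col6a2 was called with the block in PE+Snx50 against PE+Snx10 (-0.30, adjusted p = 0.0437, against 0.233 without the block).

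Of the 2 proteoglycans, Bgn fell at 50 µM with and without PE, beside 27.4% and 30.2% of all rows. Bgn, biglycan, a small leucine-rich proteoglycan bound to collagen, had 686, 643 and 814 FPKM in PE, 512, 442 and 674 in PE+Snx10 and 489, 428 and 560.2 in PE+Snx50, and 945, 749.5 and 894 in Vehicle, 838, 703 and 969 in Snx10 and 719, 546 and 559.8 in Snx50. It fell at 50 µM by 0.54 with PE and 0.51 without (SE 0.16 each, adjusted p = 0.0108 and 0.0136). The call with PE was lost on leaving out PE replicate 3 (-0.44, adjusted p = 0.055) or PE+Snx50 replicate 2 (-0.44, adjusted p = 0.0535), and the call without PE on leaving out Vehicle replicate 1 (0.0554), Snx50 replicate 2 (0.0565), Snx50 replicate 3 (0.0506) or replicate 3 of every group (0.0531), with changes of -0.45 to -0.42 and adjusted p in brackets. Bgn was called with the block in PE+Snx10 against PE (-0.41, adjusted p = 0.00839, against 0.0988 without the block, and 0.0282 without PE+Snx10 replicate 3) and PE against Vehicle (-0.27, adjusted p = 0.0461, against 0.222 without the block, and 0.0183 at -0.67 after quantile normalization).

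Vcan, versican, a large proteoglycan of the loose matrix, had 18.1, 14.2 and 21.2 FPKM in PE, 18.3, 13.6 and 26.2 in PE+Snx10 and 12.6, 12.9 and 18.7 in PE+Snx50. It had 11.2, 10.6 and 11.4 FPKM in Vehicle, 14.5, 9.71 and 12.6 in Snx10 and 8.59, 6.58 and 5.19 in Snx50. It was higher in PE than in Vehicle, without overlap, by 0.63 (SE 0.22, adjusted p = 0.0405), and lower in Snx50 than in Vehicle by 0.65 (adjusted p = 0.0171). In PE+Snx50 against PE it was at -0.26 (adjusted p = 0.329). The PE call was lost on leaving out PE replicate 1 (0.101), PE replicate 3 (0.141), Vehicle replicate 1 (0.0787), Vehicle replicate 2 (0.0956), Vehicle replicate 3 (0.0855) or replicate 3 of every group (0.107) and without the filter on low values (0.0686), with changes of 0.50 to 0.65 and adjusted p in brackets, and the Snx50 call on leaving out Snx50 replicate 3 (-0.50, adjusted p = 0.086) or replicate 3 of every group (-0.48, adjusted p = 0.0719).

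The basement membrane, the sheet of laminin and collagen IV that wraps each myocyte, was represented by 7 genes. At 50 µM 3 of them rose with and without PE, while Nid2 and Lamb2 fell with PE and Nid2 without, and the other members were not called. Of all rows, 29.3% were higher with PE and 30.5% without, and 27.4% and 30.2% were lower. For 7 genes these counts are close to the background. Lamc1, the gamma1 chain shared by most laminin trimers (rn5 chromosome 13, 75622194 to 75749168), had 246, 193 and 199 FPKM in PE, 762, 498 and 495 in PE+Snx10 and 674, 595 and 542 in PE+Snx50. Without PE it had 152, 139 and 156 FPKM in Vehicle, 287, 225 and 208 in Snx10 and 214, 265 and 225 in Snx50. Every library with inhibitor lay above every library of its own background. Lamc1 rose by 1.43 ± 0.16 at 10 µM and 1.50 ± 0.16 at 50 µM with PE (adjusted p = 5.93e-05 and 1e-06), and by 0.67 ± 0.16 and 0.65 ± 0.16 without (adjusted p = 0.0096 and 0.00227). Between the doses no difference passed the test, at 0.07 with PE and -0.02 without for 50 µM against 10 µM (adjusted p = 0.756 and 0.908). PE against Vehicle gave 0.51 (SE 0.16, adjusted p = 0.0245), and that call was lost on leaving out PE replicate 1 (0.114), Vehicle replicate 2 (0.0803) or replicate 3 of every group (0.0794) and after quantile normalization (0.223), with changes of 0.27 to 0.58 and adjusted p in brackets.

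Lamc1 was also the member whose response to PE differed with 50 µM inhibitor. The interaction, which is the PE effect in the presence of 50 µM minus that in its absence, was 0.86 (SE 0.23, adjusted p = 0.0308). It was the single member called of 38, and 7.01% of all rows were called in that test, 2.24% higher and 4.76% lower. The call was lost on leaving out PE replicate 2 (0.0799), PE replicate 3 (0.0603), PE+Snx50 replicate 1 (0.0862), Vehicle replicate 1 (0.0562), Vehicle replicate 3 (0.075), Snx50 replicate 1 (0.0557), Snx50 replicate 3 (0.0659) or replicate 3 of every group (0.214) and without the filter on low values (0.0543), with changes of 0.77 to 0.86 and adjusted p in brackets, while no alternative changed its sign. With the replicate block 5 members were called, namely Lamc1, Col18a1, Col4a1, Eln and Serpinh1, beside 16.1% of all rows. For the interaction with 10 µM limma called 0 of 38 members, beside 0.305% of all rows, 0.0668% higher and 0.239% lower. Of the 38, 3 (Col18a1, Lamc1 and Thbs2) had an unadjusted p under 0.05. The share of all rows under that threshold was not counted, so nothing is read from these 3. In the interaction with 10 µM the replicate block called Lamc1 (0.76, adjusted p = 0.0356) and Col18a1 (0.92, adjusted p = 0.00653), beside 2.2% of all rows called with the block.

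Lama4, the alpha4 laminin chain of vessels and myocyte basement membranes, had 68.4, 63.5 and 65.8 FPKM in PE, 106, 89.2 and 102 in PE+Snx10 and 85.8, 78.5 and 83.6 in PE+Snx50, and 51.4, 44.9 and 55.6 in Vehicle, 90.3, 76.4 and 85.7 in Snx10 and 67.5, 66.3 and 69.4 in Snx50. PE and the inhibitor each placed it above Vehicle without overlap. It was higher in PE than in Vehicle by 0.38 (SE 0.08, adjusted p = 0.00312), and higher at 10 µM by 0.58 ± 0.08 with PE and 0.72 ± 0.08 without (adjusted p = 0.000388 and 5.66e-05). At 50 µM the rise was 0.32 ± 0.08 with PE and 0.42 ± 0.08 without (adjusted p = 0.004 and 0.000449), so the higher dose lay below the lower dose, by 0.26 with PE and 0.31 without (adjusted p = 0.0224 and 0.00664). The call of PE against Vehicle was lost after quantile normalization (0.25, adjusted p = 0.063), and that of PE+Snx50 against PE after quantile normalization (0.23, adjusted p = 0.0592). The call between doses with PE was lost on leaving out PE+Snx10 replicate 1 (0.0954), PE+Snx10 replicate 3 (0.0737), PE+Snx50 replicate 2 (0.0818) or replicate 3 of every group (0.144), with changes of -0.24 to -0.21 and adjusted p in brackets, and the call between doses without PE on leaving out replicate 3 of every group (-0.31, adjusted p = 0.063).

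Col18a1, a basement membrane collagen whose C-terminal fragment is endostatin, had 59.8, 31.0 and 36.3 FPKM in PE, 129, 60.2 and 73.4 in PE+Snx10 and 181, 119.8 and 129 in PE+Snx50. Its values without PE were 37.3, 28.5 and 34.5 FPKM in Vehicle, 51.2, 26.4 and 32.6 in Snx10 and 92.6, 54.9 and 70.6 in Snx50. With PE both doses lay above PE without overlap, although the lowest library at 10 µM barely exceeded the highest in PE, and the doses overlapped each other. Without PE, 50 µM lay above Vehicle and Snx10 overlapped it. It rose by 1.77 (SE 0.30, adjusted p = 0.000109) in PE+Snx50 against PE and by 1.07 (SE 0.30, adjusted p = 0.00541) in Snx50 against Vehicle. At 10 µM with PE it was higher by 1.01 (SE 0.30, adjusted p = 0.0296), and that call was lost on leaving out PE replicate 2 (0.124), PE replicate 3 (0.101), PE+Snx10 replicate 1 (0.15) or replicate 3 of every group (0.196) and without the filter on low values (0.0543), with changes of 0.69 to 1.02 and adjusted p in brackets. The call of Snx50 against Vehicle was lost on leaving out replicate 3 of every group (1.10, adjusted p = 0.0627). Col18a1 was called with the block in PE against Vehicle (0.28, adjusted p = 0.0457, against 0.505 without the block), PE+Snx50 against PE+Snx10 (0.76, adjusted p = 3.4e-05, against 0.053 without the block, and 0.0098 without PE+Snx10 replicate 1) and the interaction with 50 µM (0.69, adjusted p = 0.00672, against 0.366 without the block).

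Nid2, nidogen 2, which bridges laminin and collagen IV, rose with PE and fell with 50 µM. It had 36.7, 30.7 and 34.9 FPKM in PE, 41.6, 39.0 and 43.0 in PE+Snx10 and 15.9, 13.1 and 15.1 in PE+Snx50, and 19.4, 20.5 and 23.3 in Vehicle, 20.5, 19.9 and 22.1 in Snx10 and 13.7, 9.37 and 9.001 in Snx50. PE+Snx50 lay below Vehicle as well as below PE, and PE+Snx10 above PE. The changes were 0.67 (SE 0.12, adjusted p = 0.000838) in PE against Vehicle, -1.16 (SE 0.12, adjusted p = 1.03e-06) in PE+Snx50 against PE and -0.94 (SE 0.12, adjusted p = 8.02e-06) in Snx50 against Vehicle, and each held under every alternative run. The lower dose with PE gave 0.27 (adjusted p = 0.154), so the doses parted, with 50 µM below 10 µM by 1.43 (adjusted p = 4.15e-07).

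Lamb2, the beta2 laminin chain, had 123, 86.2 and 95.6 FPKM in PE, 141, 115 and 121 in PE+Snx10 and 87.3, 67.5 and 87.9 in PE+Snx50, and 125, 109 and 128 in Vehicle, 161, 146 and 158 in Snx10 and 114, 109.5 and 114 in Snx50. Its doses moved apart in the same way. Values at 10 µM were 0.31 with PE and 0.36 without, which passed with the replicate block (adjusted p = 0.00915 and 0.00396, against 0.0912 and 0.0548). The value with PE also passed without PE replicate 1 (0.46, adjusted p = 0.0157). At 50 µM with PE it fell by 0.32 (adjusted p = 0.0358), and that call was lost on leaving out PE replicate 1 (0.218), PE+Snx50 replicate 2 (0.195) or replicate 3 of every group (0.0744) and without the filter on low values (0.0539), with changes of -0.42 to -0.17 and adjusted p in brackets. Between doses, 50 µM was lower than 10 µM by 0.63 with PE (adjusted p = 0.000648). Lamb2 was called with the block in PE against Vehicle (-0.26, adjusted p = 0.0196, against 0.127 without the block, and 0.0217 at -0.44 after quantile normalization and 0.0211 at -0.40 without PE replicate 1).

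Collagen IV, the network-forming collagen of the basement membrane, was represented by Col4a1, which passed no comparison with a control without the block. It had 534, 400.4 and 458 FPKM in PE, 559, 370.3 and 466 in PE+Snx10 and 505, 376 and 465 in PE+Snx50, and 499, 379 and 435 in Vehicle, 509, 375 and 485 in Snx10 and 408, 296 and 307 in Snx50. Replicate 1 was the highest library in every group, and compared groups overlapped in each comparison. In Snx50 against Vehicle it was at -0.38 (adjusted p = 0.0677, and 6.84e-05 with the replicate block), and with PE at -0.05 (adjusted p = 0.832). The value without PE also passed after quantile normalization (-0.70, adjusted p = 0.00649), without Vehicle replicate 2 (-0.48, adjusted p = 0.045) and without Snx50 replicate 1 (-0.53, adjusted p = 0.0219). It was lower in Snx50 than in Snx10 by 0.44 (adjusted p = 0.0459), and that call was lost on leaving out Snx10 replicate 1 (0.151), Snx10 replicate 3 (0.128), Snx50 replicate 2 (0.155), Snx50 replicate 3 (0.133) or replicate 3 of every group (0.351) and without the filter on low values (0.0741), with changes of -0.44 to -0.33 and adjusted p in brackets. Col4a1 was called with the block in the interaction with 50 µM (0.33, adjusted p = 0.0202, against 0.466 without the block). Col15a1, a relative of Col18a1, had 3.88, 3.25 and 7.13 FPKM in PE, 5.79, 3.78 and 10.3 in PE+Snx10 and 4.41, 3.50 and 5.97 in PE+Snx50, and 4.56, 3.93 and 14.2 in Vehicle, 9.28, 7.26 and 14.1 in Snx10 and 5.98, 4.15 and 5.86 in Snx50, with no call in the 5 comparisons with a control. With the block Col15a1 was called in Snx10 against Vehicle (0.54, adjusted p = 0.0488, against 0.383 without the block, and 0.0478 at 0.82 without replicate 3 of every group) and Snx50 against Snx10 (-0.79, adjusted p = 0.00227, against 0.103 without the block, and 0.0441 without replicate 3 of every group).

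The promoters of Lamc1 and Col18a1, the members with the largest rises, are shown for comparison with those of Plod2 and P4ha2. Capitals mark GC boxes on either strand and, in Lamc1, CATTCC, the MCAT element named for muscle genes. The windows are chr13:68051987-68052236 (minus strand) and chr20:11473395-11473644 (plus strand) of GRCr8, each read 5′ to 3′ on the gene's strand.
Lamc1: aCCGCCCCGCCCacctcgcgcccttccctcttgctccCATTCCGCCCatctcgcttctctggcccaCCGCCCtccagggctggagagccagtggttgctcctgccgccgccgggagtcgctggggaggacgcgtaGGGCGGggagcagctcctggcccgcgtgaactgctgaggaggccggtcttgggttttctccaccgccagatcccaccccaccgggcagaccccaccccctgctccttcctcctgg
Col18a1: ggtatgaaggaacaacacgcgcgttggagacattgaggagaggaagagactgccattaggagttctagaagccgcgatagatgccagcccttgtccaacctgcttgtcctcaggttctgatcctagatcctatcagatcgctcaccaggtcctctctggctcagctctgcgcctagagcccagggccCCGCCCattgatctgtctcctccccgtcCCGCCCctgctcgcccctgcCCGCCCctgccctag
Lamc1 held 5 GC boxes and 1 MCAT element, with 2 overlapping pairs of matches, of which 1 was a pair of GC boxes, and Col18a1 held 3 GC boxes. A GC box was in 15 of the 25 member promoters (60%) and in 32.4% of all 27456. The mean share of G and C bases was 52.6% over all promoters, and it ran from 44.8% to 75.2% among members. The part of base content in the GC box count was not tested. The remaining motifs were searched in the same 250 bases on both strands. TATAAA was in 4 members, against 13.1% of all promoters. CCAAT was in 6, against 34.3%. CATTCC was in 4, against 11.8%. CAGACA, the SMAD element, was in 7, against 16.9%. TGANTCA, the AP-1 site, was in 0 of 25, against 6.36% of all promoters.

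Fewer members passed the test with PE alone than at 50 µM of the inhibitor, and they went in both directions. Compared with Vehicle, 4 members were higher (Lama4, Lamc1, Nid2 and Vcan) and 7 lower (Col11a1, Col6a2, Col14a1, Eln, Fbln5, Thbs2 and P4ha2), beside 17.9% and 12.7% of all rows, with a median of -0.24. The 11 called are a share near the 30.6% of all rows. Groups did not overlap for 4 members that were higher and 10 that were lower, beside 25.7% and 22% of all rows. Of the 4 that rose, 3 are basement membrane glycoproteins. Col1a1 was at -0.59 (adjusted p = 0.131) and Col3a1 at -0.68 (adjusted p = 0.154), and the replicate block called both lower (adjusted p = 0.00239 and 0.000104). Both also passed after quantile normalization (-1.03 and -1.04, adjusted p = 0.0189 and 0.044) and without replicate 3 of every group (-0.58 and -0.64, adjusted p = 0.0154 and 0.0142). With the block 5 members were higher and 17 lower, while 42.2% of all rows were called and 19.2% were lower. After quantile normalization 2 members were higher and 17 lower, while 31.8% of all rows were called and 16.6% were lower. Quantile normalization also moved the share of higher calls among all called rows to 47.6%, against 58.5% as reported. Between 6 and 11 members were called when 1 library was left out, with 6 without Vehicle replicate 3 and 7 without PE replicate 1 or PE replicate 2. The shares of all rows called in those 3 settings were 20.7%, 22.0% and 23.1%.

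The comparisons at 50 µM with and without PE share no library, so they could be set side by side. Across the 38 members the log2 fold changes correlated with r = 0.951, and 35 of 38 had the same sign, while across all 10478 rows r was 0.846 and 83.5% had the same sign. These are descriptions across genes, which are not independent of each other. Serpinh1, Fbln5 and Vcan fell only without PE at the threshold and Lamb2 only with PE, and the interaction was not called for any of the 4 (adjusted p of 0.258, 0.534, 0.503 and 0.489), except that the replicate block called Serpinh1 (adjusted p = 0.0113).

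**Figure D5:**
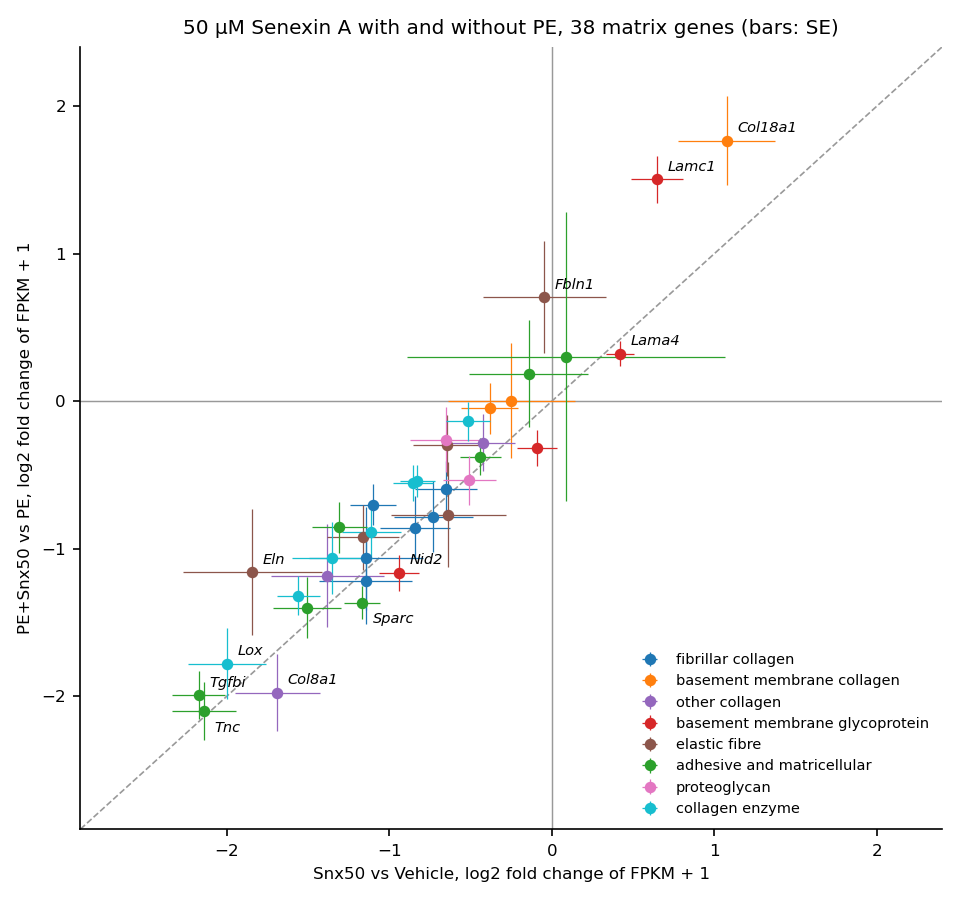
Log2 fold change of FPKM + 1 at 50 µM Senexin A with PE (vertical axis) against that without PE (horizontal axis) for 38 matrix genes, coloured by role, with standard errors and a dashed line of equality. Most points lie in the lower left near the line, and Lamc1 and Col18a1 lie above the line in the upper right.

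The doses were also compared with each other. In PE+Snx50 against PE+Snx10, 15 members were lower and 0 higher, beside 19.9% and 21.3% of all rows (41.2% together), and in Snx50 against Snx10, 28 were lower and 1, Col18a1, was higher, beside 24.9% and 25.4% (50.4% together). These comparisons share libraries with those above. Nid2, Tgfbi, Tnc, Thbs1, Col8a1, Sparc, Col5a1, Col5a3 and Plod2 were lower at 50 than at 10 µM in both and under every alternative run. For P4ha1 and P4ha2 with PE the step between doses did not pass the test, at -0.02 and -0.12 (adjusted p = 0.907 and 0.416), while without PE 50 µM was lower by 0.38 and 0.62 (adjusted p = 0.0183 and 0.000215). The P4ha1 call was lost on leaving out Snx10 replicate 1 (0.0533), Snx10 replicate 3 (0.0706), Snx50 replicate 3 (0.0621) or replicate 3 of every group (0.0509), with changes of -0.35 to -0.29 and adjusted p in brackets. With the replicate block the count with PE was 23 lower and 1 higher, while 50.9% of all rows were called and 25.3% were lower.

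Of the 38 members 6 were called in none of the 5 comparisons with a control, namely Col4a1, Col15a1, Fbln1, Mfap5, Postn and Spp1. Each of the 6 was called in at least 1 of them with the replicate block. Postn, periostin, a fibroblast product of injured hearts, had 155, 127 and 282 FPKM in PE, 240.4, 184 and 393 in PE+Snx10 and 197, 164 and 254 in PE+Snx50. It had 179.9, 184 and 398 FPKM in Vehicle, 322, 280.1 and 609.6 in Snx10 and 224, 187 and 233 in Snx50. Replicate 3 was highest in each group, and the 10 µM values, 0.55 with PE and 0.68 without, passed with the replicate block (adjusted p = 0.0143 and 0.00406, against 0.329 and 0.224 without it). The value without PE also passed without replicate 3 of every group (0.72, adjusted p = 0.0267). Postn was further called with the block in PE against Vehicle (-0.42, adjusted p = 0.0395, against 0.415 without the block) and Snx50 against Snx10 (-0.83, adjusted p = 0.00026, against 0.0695 without the block, and 0.0438 without Snx10 replicate 2 and 0.0216 without replicate 3 of every group). Spp1, osteopontin, a product of macrophages and stressed myocytes, had 50.6, 120.2 and 25.2 FPKM in PE, 72.4, 241 and 37.8 in PE+Snx10 and 52.5, 219 and 25.2 in PE+Snx50. In the series without PE it had 49.4, 129 and 19.6 FPKM in Vehicle, 54.9, 324 and 30.7 in Snx10 and 46.7, 120.3 and 26.8 in Snx50. Replicate 2 was highest and replicate 3 lowest in every group, with an SE of 0.98 for each comparison without the block, and no comparison passed there. With the replicate block Spp1 was higher at 10 µM, by 0.69 with PE and 0.70 without (adjusted p = 0.0168 and 0.0169), and lower in Snx50 against Snx10 (-0.61, adjusted p = 0.0147, against 0.623 without the block).

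A wider list of 110 further matrix genes, which are no members, was counted in the same way. It too was chosen with earlier results of these data known, so it is no independent check. Of the 59 that were tested, 38 were lower and 3 higher in PE+Snx50 against PE, beside 27.4% and 29.3% of all rows. In Snx50 against Vehicle 39 were lower and 3 higher, beside 30.2% and 30.5%. In PE+Snx10 against PE 11 were lower and 0 higher, beside 7.84% and 9.13%, and in PE against Vehicle 14 were lower and 6 higher, beside 12.7% and 17.9%. PE raised Lamb3, a laminin chain typical of epithelia, by 1.65 (SE 0.23, adjusted p = 6.14e-05) and the glycoprotein Ecm1 by 1.38 (SE 0.15, adjusted p = 4.75e-06). The largest falls with PE were those of Smoc2 (-1.62), the small proteoglycan Fmod (-1.36) and Wisp1 (-1.23). In PE+Snx50 against PE the largest falls were -2.14 (SE 0.23, adjusted p = 9.46e-07) for Mgp, matrix Gla protein, which inhibits calcification, -1.89 (SE 0.11, adjusted p = 2.42e-09) for the glypican Gpc4 and -1.84 (SE 0.29, adjusted p = 5.78e-05) for the matricellular Cyr61. The rises there among genes of at least 5 FPKM were 0.48 (SE 0.16, adjusted p = 0.0179) for the laminin chain Lama5 and 0.37 (SE 0.09, adjusted p = 0.00159) for Ppib, a prolyl isomerase that helps fold collagen. At 10 µM with PE the largest falls among genes averaging at least 5 FPKM in a compared group were -0.93 (SE 0.17, adjusted p = 0.00161) for Pcolce, which aids removal of the procollagen C-propeptide, -0.93 (SE 0.29, adjusted p = 0.0381) for Cyr61 and -0.86 (SE 0.22, adjusted p = 0.0149) for Wisp2. The Lama5 call was lost on leaving out PE replicate 1 (0.45, adjusted p = 0.0515), PE+Snx50 replicate 3 (0.28, adjusted p = 0.115) or replicate 3 of every group (0.30, adjusted p = 0.182). The call of Cyr61 at 10 µM was lost on leaving out PE replicate 1 (0.0838), PE replicate 3 (0.143), PE+Snx10 replicate 1 (0.0615), PE+Snx10 replicate 2 (0.182) or replicate 3 of every group (0.0994) and without the filter on low values (0.0686) and after quantile normalization (0.0511), with changes of -1.03 to -0.59 and adjusted p in brackets, and that of Wisp2 on leaving out PE replicate 3 (-0.71, adjusted p = 0.077) or PE+Snx10 replicate 1 (-0.62, adjusted p = 0.0829).

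Across the 6 group means, the rows whose log2 levels followed Col1a1 most closely were Tlr6 (r = 0.999), Col3a1 (0.997), Acin1 (0.997), Sp110 (0.996) and Dbn1 (0.996). For Fn1 they were Gltscr1l (0.999), Snx9 (0.998), Myh9 (0.997), Micb (0.997) and Arhgap29 (0.997), and for Sparc Sptb (1.00), Col8a1 (0.999), Sulf1 (0.998), Pik3r3 (0.997) and Phactr2 (0.997). Each r rests on 6 points that share the same libraries. Among members, the median r with the other members was 0.847 for Col1a1 and 0.879 for Fbn1, and it was -0.601 for Lamc1 and -0.820 for Col18a1.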

How the data were processed

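The authors deposited 1 table of FPKM values for 18 libraries, with 17303 gene rows. Reads of polyadenylated RNA had been processed with Bowtie2 and Cufflinks on rn5, per the submitters' processing notes, while their versions, the annotation and the use of strand are not given in the sources used here. A floor is present, since the lowest value in the deposited FPKM table is 0.01, and 2766 rows stood there in every library.

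Here, limma 3.58.1 in R 4.3.3 was fitted to log2(FPKM + 1) of the 10478 rows that reached 1 FPKM in 3 libraries or more. The fit held 6 group means and had 12 residual degrees of freedom, with a trend of the variance on the mean level. P-values were two-sided and adjusted by Benjamini-Hochberg within each comparison over all 10478 rows. Fold changes on this scale understate changes of low genes. Sums, motif counts and plots were made in Python 3.11.15 with numpy 2.4.6, pandas 2.3.3 and matplotlib 3.10.9. The fit was tested on simulated data.

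Since FPKM hold no counts, relative depth was read from the step size of rows under 0.2 FPKM. Within groups, libraries correlated with r of 0.986 to 0.992. No label ties a library to its own culture, so a p-value here weighs variation among libraries that could be purely technical. Deviations from group means correlated with r of 0.213 to 0.587 between libraries of the same replicate number (45 pairs) and -0.462 to 0.0949 between different numbers (90 pairs). The numbers therefore pair the libraries. The pairing comes from the data and not from a stated batch.

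The members and gene lists were chosen with earlier results of these data known. Values per library are given for up to 4 members of each role class with the lowest adjusted p and at least 5 FPKM, and for the most abundant member of each class. Fn1 was added with Col1a1 and Sparc as a gene whose likeness was sought, and Postn and Spp1 were added after their values were seen. Other matrix genes are the 3 largest rises and falls among called genes of at least 5 FPKM, of which 1 is not reported here. Alternatives were a pseudocount of 0.1, no filter, quantile normalization, median-ratio scaling, a replicate block and leaving out each library. Leaving out replicate 3 of every group was chosen after seeing the data. Promoter sequences came from RefSeq (GRCr8) and matched 25 of 38 members by symbol.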

Additional observations from a re-analysis of the deposited data

Results flagged for a closer look

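Lamc1 stood out because its response to PE was called different with 50 µM of the inhibitor. The PE effect in the presence of 50 µM Senexin A minus that in its absence was 0.86 (SE 0.23, adjusted p = 0.0308) in limma, over 3 libraries in each of the 4 groups. That call was lost in 9 of the 18 alternatives run, with adjusted p up to 0.214, and no alternative changed its sign. The same difference at 10 µM was not called, at 0.76 (adjusted p = 0.207, and 0.0356 with the replicate block).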

How the results depend on the processing

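Of 129 called member values, 82 held under every alternative run, 47 lost the call in at least 1, and none of the 129 changed sign. Leaving out 1 library ended 40 of these calls, leaving out replicate 3 of every group 21, and another setting 18. For PE against Vehicle, 11 members were called as reported, 7 without the filter on low values, 19 after quantile normalization, 22 with the replicate block, and 6 to 11 when 1 library was left out. For Snx10 against Vehicle the count was 5 as reported, 8 after quantile normalization, 13 with the replicate block and 3 to 6 when 1 library was left out. For PE+Snx10 against PE it was 10 as reported, 21 with the replicate block and 5 to 11 when 1 library was left out. For PE+Snx50 against PE+Snx10 it was 15 as reported and 24 with the replicate block. The interaction with 10 µM called 0 members as reported and 2 with the replicate block. The interaction with 50 µM called 1 as reported, 0 without the filter, 0 without replicate 3 of every group, 5 with the replicate block and 0 to 1 when 1 library was left out. Shares of all rows called moved too. With the replicate block they were 42.2% for PE against Vehicle, 26.4% for Snx10 against Vehicle and 27.9% for PE+Snx10 against PE. That share was 50.9% for PE+Snx50 against PE+Snx10, and 2.2% and 16.1% for the interactions. With 1 library left out, the first 3 shares were 20.7% to 27.1%, 9.09% to 13.9% and 9.87% to 15%, against 30.6%, 16.2% and 17% as reported. Among printed values that passed no test, some changed sign. Sparc in PE against Vehicle was -0.57 after quantile normalization. When 1 library was left out, Col4a1 in PE+Snx50 against PE ranged over -0.15 to 0.073, Lamc1 over -0.035 to 0.28 between doses with PE and -0.12 to 0.11 without, P4ha1 over -0.13 to 0.11 between doses with PE, and Spp1 over -0.036 to 1.28 in PE+Snx10 against PE, -0.28 to 1.39 in Snx10 against Vehicle and -1.31 to 0.37 in Snx50 against Snx10. The causes of these shifts were not tested. At 50 µM the counts stayed within 1.5 times those reported, at 26 to 32 for Snx50 against Vehicle and 22 to 29 for PE+Snx50 against PE when 1 library was left out. The replicate block ended no member call and added 55 over all comparisons. Absolute depth is unknown, and with 3 libraries a group the SE of a gene that varies between replicates was wide without the block, at 0.98 for Spp1.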
